A study of Mus musculus with 11 samples.

Results

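Bacterial lipopolysaccharide (LPS) is read by macrophages through Toll-like receptor 4, and 10 genes that act directly around that receptor were followed here in mouse RAW cells with and without depletion of Girdin (GIV). They are the co-receptors Cd14 and Ly96, the adaptors Myd88, Tirap, Ticam1 and Ticam2, and the interleukin-1 receptor-associated kinases Irak1, Irak2, Irak3 and Irak4. They were taken by gene symbol from a deposited table of 52143 genes. That rule uses no measured value, but earlier results of these data were known when the genes were chosen. All 10 were found once in the table, and all 10 passed the filter on low values that left 13711 genes for testing.

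CD14, anchored on the outer membrane, takes up LPS and hands it to MD-2, the product of Ly96, which holds the lipid inside the Toll-like receptor 4 complex. At the plasma membrane the bridging adaptor TIRAP brings in MyD88, and MyD88 assembles IRAK4 with IRAK1 or IRAK2 into the Myddosome, which leads to NF-kappa B and to inflammatory genes. From endosomes the bridging adaptor TRAM (Ticam2) brings in TRIF (Ticam1), which leads to IRF3 and interferon beta. IRAK4 and IRAK1 are active kinases. IRAK-M, the product of Irak3, is known in macrophages as a brake on this pathway and as a contributor to LPS tolerance.

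The study asked what Girdin, a scaffold protein encoded by Ccdc88a, does in macrophages that meet LPS. RAW cells, a mouse macrophage-like line, carried either a hairpin against GIV (shGIV) or a control hairpin (shC), and each line was sampled after 5 h of LPS at 100 ng/ml or without LPS (0 h). The libraries analysed were 3 of shGIV cells with LPS, 1 of shC cells with LPS (replicate 2), 3 of shGIV cells without LPS and 3 of shC cells without LPS. The labels list a further shC sample with LPS, replicate 3, which was not analysed here. They do not say whether a line is a clone, whether more than 1 hairpin was used or whether the replicates came from separate cultures. The p-values below therefore measure the spread between these samples and no more. Levels are TPM, a transcript abundance that corrects for gene length and adds up to the same total in each library. Differences are on the scale log2(TPM + 1) and understate changes of genes near 0.

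By GENCODE M21 on GRCm38, the build of the deposited values, the 10 are protein-coding genes on 8 chromosomes. Ly96 is at chr1:16688051-16709611 on the plus strand. Of the adaptors, Myd88 is at chr9:119335934-119341411, Tirap at chr9:35184551-35200291 and Ticam1 at chr17:56269319-56276786, all on the minus strand. Of the IRAK genes, Irak1 is at chrX:74013914-74023918 and Irak3 at chr10:120141648-120202130 on the minus strand, and Irak2 at chr6:113638467-113695026 and Irak4 at chr15:94543643-94581815 on the plus strand.

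Promoters are shown for 4 of the genes because their transcripts moved in different ways. Myd88 and Irak2 had the largest rises with LPS, Irak3 was called between the lines with LPS, a call that rests on 1 shC library, and Irak1 fell with LPS. Each run is the 250 bases before the RefSeq transcript start on the gene's own strand, from RefSeq on GRCm38.p6. The RefSeq start lies 23 bases from the start of the transcript named in the deposited table for Myd88, 62 bases for Irak3 and 0 bases for Irak1 and Irak2. The window of Myd88 is chr9:119340019-119340268 on the minus strand, that of Irak2 chr6:113638217-113638466 on the plus strand, that of Irak3 chr10:120201598-120201847 on the minus strand and that of Irak1 chrX:74023919-74024168 on the minus strand. Capitals mark a match on either strand to GGG, any 5 bases, then CC (kappa B type), TGANTCA (AP-1 type), GAAA, any 2 bases, then GAAA (interferon response type) or GAGGAAG (PU.1 type).
Myd88: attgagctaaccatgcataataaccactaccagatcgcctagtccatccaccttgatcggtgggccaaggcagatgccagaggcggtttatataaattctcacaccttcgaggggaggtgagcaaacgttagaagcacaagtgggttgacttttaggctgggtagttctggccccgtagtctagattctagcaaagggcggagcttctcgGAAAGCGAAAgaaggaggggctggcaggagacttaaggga
Irak2: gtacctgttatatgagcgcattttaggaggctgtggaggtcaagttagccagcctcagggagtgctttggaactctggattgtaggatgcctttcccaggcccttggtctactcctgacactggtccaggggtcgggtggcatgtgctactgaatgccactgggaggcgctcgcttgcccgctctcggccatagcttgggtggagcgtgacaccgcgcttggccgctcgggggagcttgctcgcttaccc
Irak3: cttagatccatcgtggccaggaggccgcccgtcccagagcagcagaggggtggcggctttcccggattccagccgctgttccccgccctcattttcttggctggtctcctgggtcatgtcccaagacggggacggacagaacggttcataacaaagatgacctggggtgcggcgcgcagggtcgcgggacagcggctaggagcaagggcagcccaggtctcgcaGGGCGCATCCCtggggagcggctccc
Irak1: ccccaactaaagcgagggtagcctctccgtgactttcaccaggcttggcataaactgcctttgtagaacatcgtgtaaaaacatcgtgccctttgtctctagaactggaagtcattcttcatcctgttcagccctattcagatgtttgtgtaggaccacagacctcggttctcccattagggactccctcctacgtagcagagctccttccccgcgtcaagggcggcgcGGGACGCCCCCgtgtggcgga
The capitals in Myd88 are an interferon response type match, GAAAGCGAAA, at positions -40 to -31 from the transcript start. Those in Irak3 are the kappa B type match GGGCGCATCC at -26 to -17, and a second match on the opposite strand at -25 to -16 that overlaps it. Those in Irak1 begin with the kappa B type match GGGACGCCCC at -21 to -12, which also reads as a match on the opposite strand and overlaps another there at -20 to -11. None of these letters were found in the Irak2 window. The RefSeq table had windows for 7 of the 10 genes that can be shown here, and 5 of these 7 (Tirap, Ticam1, Irak1, Irak3 and Irak4) held a kappa B type match, against 45.8% of all 32851 windows of 250 bases. The interferon response type letters were in 1 of the 7 windows, that of Myd88, against 2.98% of all windows. GAGGAAG was in 1 window, that of Ticam1, against 10.6% of all windows, and TGANTCA was in 0 of 7, against 6.75%. For the windows not printed, the RefSeq start lies 326 bases from the start of the named transcript for Tirap, 19 for Ticam1 and 17 for Irak4. The Tirap window therefore does not adjoin the start of the transcript named in the deposited table. Ly96 has no entry in the RefSeq table. These matches are letters in a window and were not tested as binding sites.

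Replicate 2 of the shC cells without LPS stood apart from the other libraries. Its values for the 10 genes lay below the mean of shC replicates 1 and 3 by a log2 difference of -1.46 for Tirap to -4.23 for Cd14, with a median of -2.23. The median over 8729 genes well expressed in shC replicates 1 and 3 was -2.45, so the 10 genes were low together with that set. The set was chosen by its level in the replicates it is compared with. TPM adds up to the same total in each library, so the set does not stand for the whole transcriptome. Replicate 2 is therefore given apart, and group means and tests rest on the other 9 libraries, which held 19795 to 21678 genes above 0. It held 68.0 TPM of Cd14, 11.8 TPM of Irak1, 8.80 TPM of Irak2 and 6.16 TPM of Myd88, and 0.967 to 4.83 TPM of the other 6 genes. With replicate 2 added (10 libraries), only Ticam2 of the 10 genes was called for LPS in shGIV cells, beside 2236 of all 13919 genes tested. In the other 5 comparisons 0 of 10 were called, beside 481 of all genes for LPS in shC cells and 0 for the rest. Its low values also move the LPS differences of the shC line, for example to 2.61 for Cd14 and 2.76 for Myd88, against 1.20 and 1.69 with 9 libraries. The single shC library with LPS is labelled replicate 2 as well. Among the 9 libraries no shC replicate number is therefore present both with and without LPS.

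Ccdc88a, the transcript the hairpin targets, was 3.08, 2.62 and 3.39 TPM in shGIV cells with LPS, against 5.77 TPM in the shC library with LPS. Without LPS it was 6.93, 5.31 and 5.58 TPM in shGIV cells, against 10.0 and 7.69 TPM in shC cells. Averaged over both times it was lower in shGIV cells by a log2 difference of -0.63 ± 0.12 (SE; adjusted p = 0.0287, limma with Benjamini-Hochberg adjustment over all genes tested). At either time alone it was not called, with log2 differences of -0.75 with LPS and -0.50 without LPS. When line labels were exchanged within LPS and no-LPS libraries, an exact two-sided permutation test gave p = 0.025, the smallest p this design allows. With 10 libraries the same permutation test gave p = 0.5875, at a mean log2 difference of -0.27 and with 47 of 80 assignments as extreme. That limma call is lost without any 1 of 6 libraries (each shGIV replicate with LPS, shGIV replicate 2 or 3 without LPS, shC replicate 1 without LPS), and over all libraries left out in turn the adjusted p ran from 0.0334 to 0.0731. The call is also lost with no filter on low values (adjusted p = 0.0649), under TMM scaling (adjusted p = 0.0573), under quantile normalization (adjusted p = 0.0615), under a rescaling that drops the most abundant genes (adjusted p = 0.0509) and with 10 libraries (adjusted p = 0.936). The transcript was still measured in every shGIV library.

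Of 8 macrophage markers, 7 were well above 1 TPM in every one of the 9 libraries, and Mertk was at most 0.0700 TPM. The summed level of the 8 was 9385 to 9697 TPM in shGIV cells with LPS and 11474 TPM in the shC library with LPS, against 16835 to 17380 TPM in shGIV cells and 18044 to 18423 TPM in shC cells without LPS. That sum was mostly Lyz2, which reached 15913 TPM, so its fall does not show that each marker fell. Itgam went the other way. It averaged 90.9 TPM with LPS and 37.3 TPM without LPS in shGIV cells. In shC cells it was 123 TPM with LPS and averaged 57.9 TPM without LPS. Markers of T cells, B cells, fibroblasts, epithelial cells and neutrophils summed to at most 1.30 TPM in any group, with Krt18 at 0 in every library, and 4 endothelial markers summed to 2.36 to 5.35 TPM, mostly Vwf. In bulk RNA, fewer cells of a type and less RNA per cell cannot be told apart, and the part of the lower marker sum with LPS in the results below was not tested.

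Cd14 was the most abundant of the 10 transcripts in every group, with a mean of 1296 TPM in shC cells without LPS, a level above 99.8% of all genes in the table. Myd88 was the next in every group. After these came Irak2 with LPS in both lines and Irak1 without LPS in both lines. Ticam2 was the lowest of the 10 with LPS, and Irak3 was the lowest without LPS. In shGIV cells with LPS the order below Irak2 was Ticam1, Ly96, Irak1, Tirap, Irak3 and Irak4, and the neighbours Ticam1 and Ly96, Ly96 and Irak1, and Tirap and Irak3 overlapped in their replicate ranges. The single shC library with LPS gave Ly96, Ticam1, Irak1, Irak3, Tirap and Irak4, with no replicate range to set them against. Without LPS both lines gave the same order, namely Irak1, Irak2, Ly96, Irak4, Ticam1, Tirap, Ticam2 and Irak3. In shGIV cells Tirap overlapped Ticam2, and Ticam2 overlapped Irak3. In shC cells Irak2 overlapped Ly96, and Irak4 overlapped Ticam1, as did Ticam1 and Tirap.

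**Figure D1:**
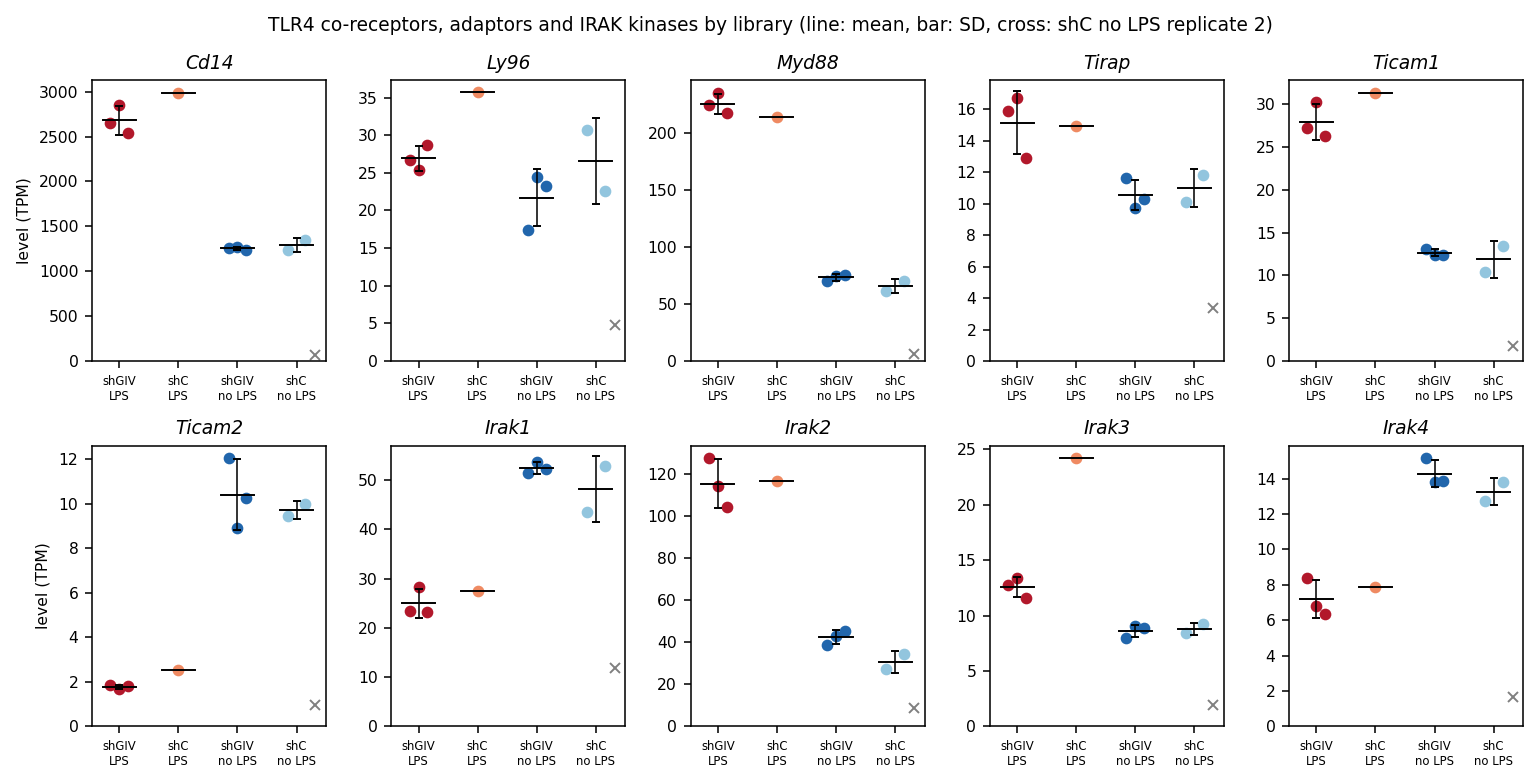
Level of each of the 10 transcripts in every library, in TPM on axes that start at 0, by group. Points are libraries, horizontal lines are means, bars are SD where a group has more than 1 library, and crosses are replicate 2 of shC cells without LPS, which enters no mean. Irak3 stands at 24.2 TPM in the shC library with LPS, above the 11.6 to 13.4 TPM of the 3 shGIV libraries with LPS, while for Cd14 and Myd88 the LPS libraries of both lines lie far above those without LPS.

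With LPS, 9 of the 10 genes were called in shGIV cells, 6 higher and 3 lower, and 8 of the 10 in shC cells, 5 higher and 3 lower. Cd14, Myd88, Ticam1, Irak2 and Irak3 rose and Ticam2, Irak1 and Irak4 fell in both lines, and Tirap rose in shGIV cells. LPS moved most of the transcriptome: 75.5% of genes tested were called in shGIV cells (15.8% higher and 59.7% lower) and 58.9% in shC cells (14.8% higher and 44.1% lower). The 9 of 10 and 8 of 10 called are therefore to be read against a background in which most genes were called, mainly lower. Across the 10 genes the median log2 difference was 0.49 in shGIV cells and 0.81 in shC cells, against -0.54 and -0.40 over all genes tested. The comparison in shC cells rests on 1 LPS library, which was assumed to vary like the other groups. When only the shC libraries were fitted, 4 of the 10 (Myd88, Ticam2, Irak2 and Irak3) were called, beside 2859 of all 13711 genes tested.

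Because the median gene moved down on the TPM scale, the scaling matters for the genes that fell or rose little. TMM scaling, which sets libraries level on the bulk of their genes, moved the median of all genes to -0.06 in shGIV cells and -0.02 in shC cells, and the split of all genes called to 4305 higher and 4883 lower in shGIV cells and 3577 higher and 3649 lower in shC cells. No gene of the 10 changed direction in either line under TMM scaling, quantile normalization or a rescaling that drops the most abundant genes. Relative to the median gene of the deposited scale, the falls were -1.49 for Ticam2, -0.51 for Irak1 and -0.36 for Irak4 in shGIV cells, and -1.21, -0.38 and -0.29 for the same 3 genes in shC cells. On that relative scale the largest rises were those of Myd88 and Irak2, with 2.14 and 1.97 in shGIV cells and 2.09 and 2.30 in shC cells.

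**Figure D2:**
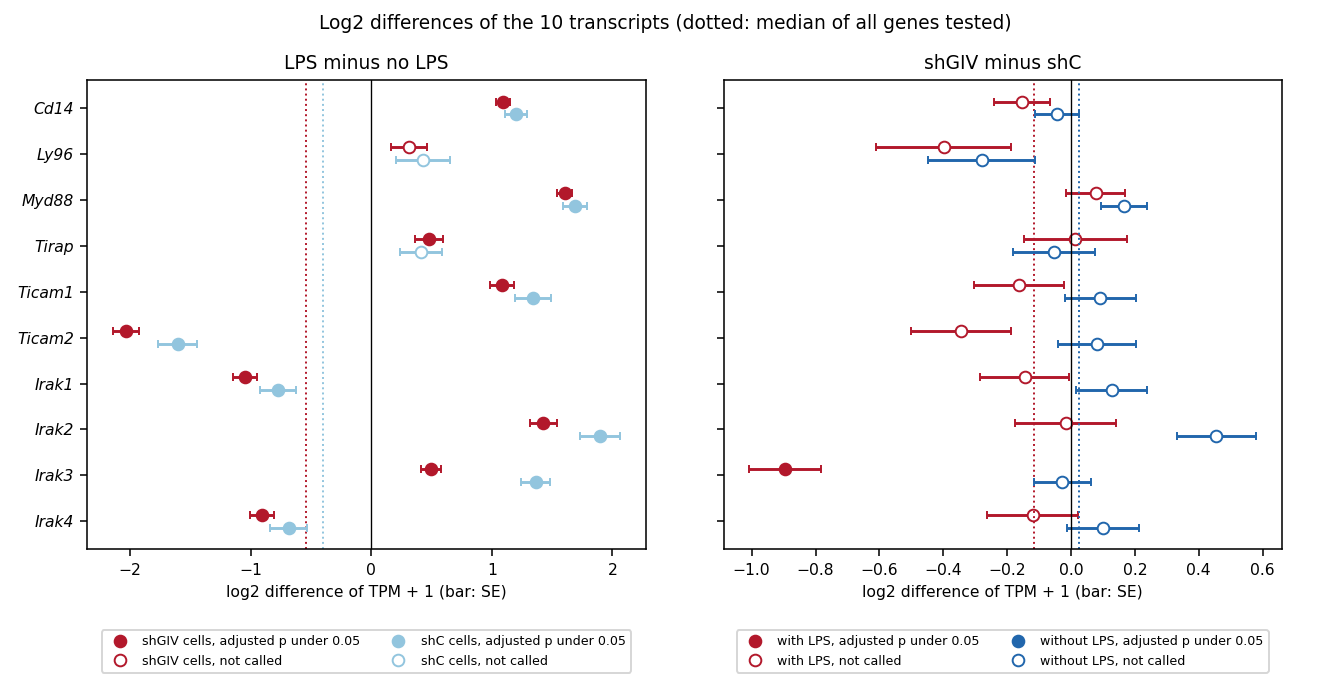
Log2 differences of TPM + 1 with their SE for LPS against no LPS in each line (left) and for shGIV against shC cells at each time (right). Filled points have an adjusted p under 0.05, and dotted lines are the median over all genes tested. Ticam2, Irak1 and Irak4 lie left of 0 in both lines in the left panel, and in the right panel the filled point is Irak3 with LPS, at -0.89.

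Cd14, the LPS-binding co-receptor (chr18:36725067-36726798, minus strand), was at 2648, 2856 and 2541 TPM in shGIV cells with LPS, against 1258, 1271 and 1241 TPM without LPS. The shC library with LPS gave 2981 TPM, against 1241 and 1352 TPM in shC cells without LPS. The groups with and without LPS did not overlap in either line, and neither did those of 78.5% of all genes tested in shGIV cells and 87.5% in shC cells. The mean level with LPS was 2.13-fold that without LPS in shGIV cells (log2 difference 1.09 ± 0.06, adjusted p = 1.56e-06) and 2.30-fold in shC cells (1.20 ± 0.09, adjusted p = 2.29e-05).

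Ly96, which encodes the lipid-binding partner MD-2, was far scarcer than Cd14. It was at 26.7, 25.4 and 28.7 TPM in shGIV cells with LPS, against 17.5, 24.4 and 23.3 TPM without LPS. In the shC line the values were 35.7 TPM with LPS, against 30.7 and 22.6 TPM without LPS. Every LPS library was above every library of its line without LPS, by margins near the spread between replicates. The log2 difference was 0.31 ± 0.15 in shGIV cells (adjusted p = 0.0937) and 0.43 ± 0.22 in shC cells (adjusted p = 0.138), and neither was called on the deposited scale. Under TMM scaling both were called, at 0.88 in shGIV cells (adjusted p = 0.00226) and 0.85 in shC cells (adjusted p = 0.0235). Quantile normalization called it in shGIV cells at 0.79 (adjusted p = 0.00546), and leaving out shC replicate 1 without LPS called it in shC cells (adjusted p = 0.0441). The Cd14 level was 88.6 to 113 times the Ly96 level in shGIV cells with LPS and 83.4 times in the shC library with LPS, against 52.0 to 72.0 times in shGIV cells and 40.5 to 59.9 times in shC cells without LPS. These ratios come from within a library and do not depend on its scaling factor.

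Myd88, the central adaptor, was at 225, 235 and 217 TPM in shGIV cells with LPS, against 70.1, 75.0 and 75.8 TPM without LPS. In shC cells it was at 214 TPM with LPS, against 61.5 and 69.8 TPM without LPS. This is a rise of 1.60 ± 0.07 on the log2 scale in shGIV cells (adjusted p = 2.84e-07) and of 1.69 ± 0.10 in shC cells (adjusted p = 5.63e-06). Myd88 overlaps Acaa1a on the opposite strand, which was at a mean of 95.1 TPM in shGIV cells with LPS and 158.6 TPM without LPS, and so moved the other way in level.

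Ticam1, which encodes the interferon-inducing adaptor TRIF, was at 27.2, 30.2 and 26.3 TPM in shGIV cells with LPS, against 13.1, 12.4 and 12.4 TPM without LPS. The shC library with LPS gave 31.3 TPM, against 10.3 and 13.4 TPM in shC cells without LPS. It rose by 1.08 ± 0.10 in shGIV cells (adjusted p = 2.37e-05) and by 1.34 ± 0.15 in shC cells (adjusted p = 0.000159) on the log2 scale. Its bridging adaptor Ticam2 went the other way. Ticam2 was at 1.85, 1.66 and 1.79 TPM in shGIV cells with LPS, against 12.1, 8.90 and 10.3 TPM without LPS. In the shC line the values were 2.52 TPM with LPS, against 9.43 and 10.0 TPM without LPS. The level with LPS was 17.0% of that without LPS in shGIV cells (log2 difference -2.03 ± 0.11, adjusted p = 1.29e-06) and 25.9% in shC cells (-1.61 ± 0.17, adjusted p = 0.000108), the largest fall of the 10 genes in both lines. Within a library, Ticam2 stood at 0.0550 to 0.0683 of the Ticam1 level in shGIV cells with LPS and at 0.0804 in the shC library with LPS, against 0.716 to 0.920 in shGIV cells and 0.746 to 0.912 in shC cells without LPS.

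Ticam2 (chr18:46557291-46574533, minus strand) overlaps Tmed7 over 14299 bases on the same strand, so the assignment of reads between them is uncertain. Tmed7, a cargo receptor of the early secretory pathway, averaged 40.6 TPM in shGIV cells with LPS and 48.9 TPM without LPS, a log2 difference of -0.27 ± 0.09 (adjusted p = 0.0227). In shC cells Tmed7 was 50.3 TPM with LPS, against a mean of 55.1 TPM without LPS, a difference of -0.13 ± 0.13 that was not called (adjusted p = 0.429).

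Tirap, the bridging adaptor of Myd88, was at 15.9, 16.7 and 12.9 TPM in shGIV cells with LPS, against 11.6, 9.73 and 10.3 TPM without LPS. In shC cells it was at 14.9 TPM with LPS, against 10.1 and 11.8 TPM without LPS. It rose by 0.48 ± 0.11 in shGIV cells on the log2 scale (adjusted p = 0.00547). In shC cells the difference was 0.41 ± 0.17 and was not called (adjusted p = 0.0719), but it was called at 0.82 under TMM scaling (adjusted p = 0.00196), at 0.86 under quantile normalization (adjusted p = 0.00169), and without shGIV replicate 3 with LPS (adjusted p = 0.0399). Against Myd88, Tirap was at 0.0593 to 0.0710 of its level in shGIV cells with LPS and 0.0698 in the shC library with LPS, against 0.130 to 0.166 in shGIV cells and 0.165 to 0.170 in shC cells without LPS. Both bridging adaptors thus stood lower relative to the adaptor they serve in every LPS library than in any library without LPS.

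Of the IRAK genes, Irak2 and Irak3 rose and Irak1 and Irak4 fell with LPS in both lines. Irak2, a Myddosome kinase that sustains late signalling in mouse macrophages, was at 128, 114 and 105 TPM in shGIV cells with LPS, against 38.8, 42.8 and 45.5 TPM without LPS. The shC library with LPS gave 117 TPM, against 27.1 and 34.4 TPM in shC cells without LPS. The mean level with LPS was 2.73-fold that without LPS in shGIV cells (log2 difference 1.42 ± 0.11, adjusted p = 9.87e-06) and 3.79-fold in shC cells (1.90 ± 0.17, adjusted p = 4.84e-05). The shC library lay inside the range of the shGIV libraries with LPS.

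Irak1, the kinase that IRAK4 activates early in signalling, was at 23.4, 28.3 and 23.3 TPM in shGIV cells with LPS, against 51.4, 53.7 and 52.3 TPM without LPS. In the shC line the values were 27.6 TPM with LPS, against 43.5 and 52.9 TPM without LPS. It fell by 1.05 ± 0.10 on the log2 scale in shGIV cells (adjusted p = 2.81e-05) and by 0.78 ± 0.15 in shC cells (adjusted p = 0.00270). Under TMM scaling the fall in shC cells was -0.35 and was not called (adjusted p = 0.0563). Irak4, the first kinase of the Myddosome, was at 8.38, 6.80 and 6.37 TPM in shGIV cells with LPS, against 15.2, 13.8 and 13.9 TPM without LPS. In shC cells it was at 7.85 TPM with LPS, against 12.7 and 13.8 TPM without LPS. It fell by 0.91 ± 0.10 in shGIV cells (adjusted p = 7.46e-05) and by 0.69 ± 0.15 in shC cells (adjusted p = 0.00558). In shC cells the Irak4 call was lost under TMM scaling (-0.28, adjusted p = 0.0928) and under quantile normalization (-0.17, adjusted p = 0.276), and with 10 libraries the value turned to 0.11 (adjusted p = 0.981).

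Irak3, the brake, was at 12.7, 13.4 and 11.6 TPM in shGIV cells with LPS, against 8.00, 9.06 and 8.84 TPM without LPS. The shC library with LPS gave 24.2 TPM, against 8.42 and 9.20 TPM in shC cells without LPS. The mean level with LPS was 1.46-fold that without LPS in shGIV cells (log2 difference 0.49 ± 0.08, adjusted p = 0.000653) and 2.75-fold in shC cells (1.36 ± 0.12, adjusted p = 4.76e-05). Over the scalings the rise was 0.49 to 1.12 in shGIV cells (adjusted p = 3.25e-06 to 0.000653) and 1.36 to 1.78 in shC cells, so its size in shGIV cells depends on the scaling. The same held in shGIV cells for Tirap, at 0.48 to 1.08, for Irak1, at -1.05 to -0.48, and for Irak4, at -0.91 to -0.25, each called under every scaling.

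**Figure D3:**
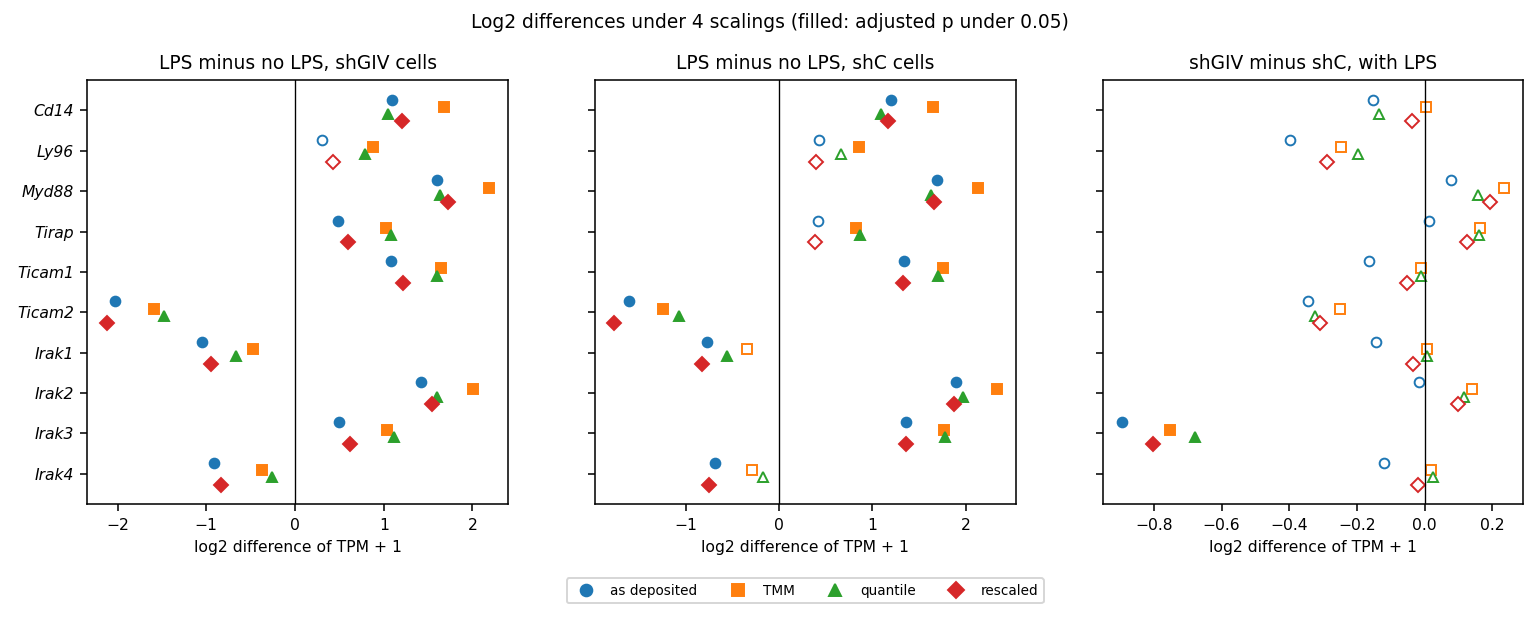
Log2 differences of the 10 transcripts under 4 scalings (TPM as deposited, TMM, quantile normalization, and a rescaling after removal of mitochondrial genes and the 100 most abundant genes), for LPS in shGIV cells, LPS in shC cells, and shGIV against shC cells with LPS. Filled markers have an adjusted p under 0.05. Each gene keeps its side of 0 in the first 2 panels, the open markers there belong to Ly96, Tirap, Irak1 and Irak4, and Irak3 is the filled row of the right panel, between -0.89 and -0.68.

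The make-up of both families differed with LPS, as shares of the summed TPM within each library show. The leading IRAK transcript was another one with LPS, while Myd88 led the adaptors at both times. Irak2 made up 70.2% to 74.2% of the 4 IRAK transcripts in shGIV cells with LPS and 66.1% in the shC library with LPS, against 34.2% to 37.8% in shGIV cells and 29.6% to 31.2% in shC cells without LPS. Irak1 made up 13.6% to 17.4% in shGIV cells with LPS and 15.7% in the shC library with LPS, against 43.4% to 45.3% in shGIV cells and 47.4% to 47.9% in shC cells without LPS. Irak1 thus led the family without LPS and Irak2 with LPS, in every library. The Irak4 share was 4.18% to 4.87% in shGIV cells with LPS and 4.46% in the shC library with LPS, against 11.5% to 13.4% in shGIV cells and 12.5% to 13.9% in shC cells without LPS. The Irak3 share was 7.39% to 8.23% in shGIV cells with LPS and 13.7% in the shC library with LPS, against 7.05% to 7.59% in shGIV cells and 8.34% to 9.19% in shC cells without LPS. The Irak3 share was thus close at both times in shGIV cells, while in shC cells it was larger in the LPS library. Against Irak4, Irak3 was at 1.52 to 1.97 of its level in shGIV cells with LPS and at 3.08 in the shC library with LPS, against 0.527 to 0.656 in shGIV cells and 0.663 to 0.667 in shC cells without LPS. Against Irak2, Irak3 was at 0.0996 to 0.117 of its level in shGIV cells with LPS and at 0.208 in the shC library with LPS, against 0.194 to 0.212 in shGIV cells and 0.267 to 0.311 in shC cells without LPS.

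Among the 4 adaptors Myd88 held 82.9% to 84.1% of the summed TPM in shGIV cells with LPS and 81.4% in the shC library with LPS, against 65.6% to 70.7% in shGIV cells and 66.5% to 67.3% in shC cells without LPS. Ticam2 held 0.587% to 0.695% in shGIV cells with LPS and 0.959% in the shC library with LPS, against 8.40% to 11.3% in shGIV cells and 9.52% to 10.3% in shC cells without LPS. The Ticam1 share was nearly level, at 10.1% to 10.7% in shGIV cells with LPS and 11.9% in the shC library with LPS, against 11.4% to 12.3% in shGIV cells and 11.3% to 12.8% in shC cells without LPS. The adaptor sum was 258 to 283 TPM in shGIV cells with LPS and 262 TPM in the shC library with LPS, against 106 to 109 TPM in shGIV cells and 91.4 to 105 TPM in shC cells without LPS. The IRAK sum was 146 to 172 TPM in shGIV cells with LPS and 176 TPM in the shC library with LPS, against 113 to 120 TPM in shGIV cells and 91.7 to 110 TPM in shC cells without LPS.

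**Figure D4:**
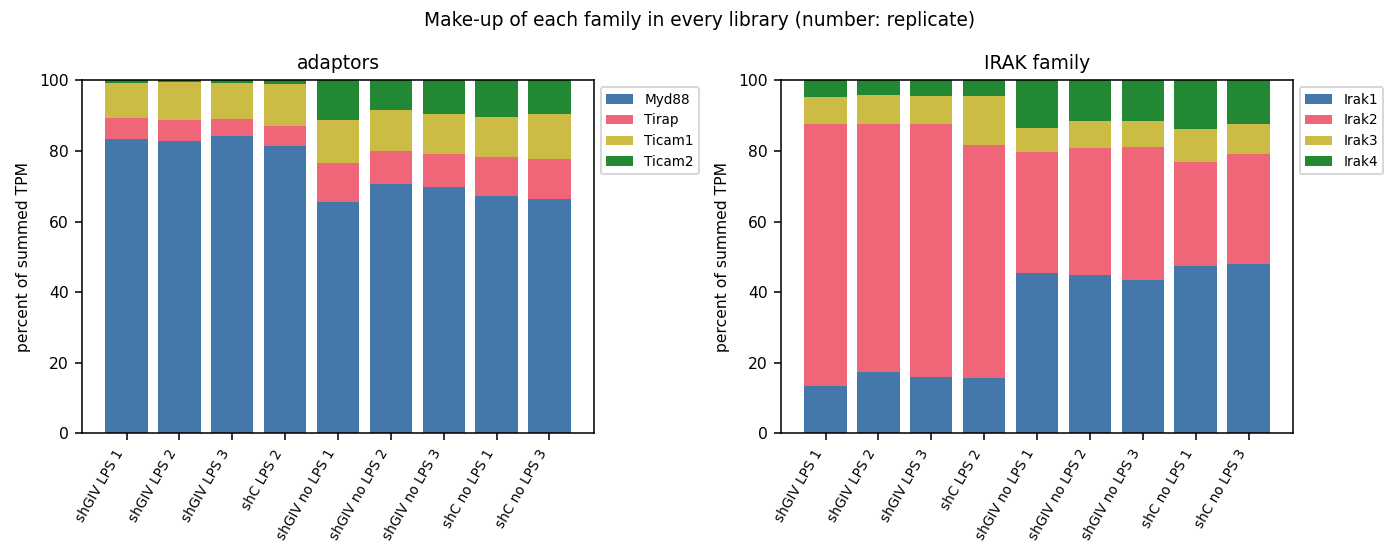
Share of each transcript in the summed TPM of its family, as stacked bars that run from 0 to 100%, for the 4 adaptors (left) and the 4 IRAK genes (right) in each of the 9 libraries. The Irak2 band widens to 66.1% to 74.2% in the LPS libraries, the Ticam2 band shrinks below 1%, and the Irak3 band is widest in the shC library with LPS, at 13.7%.

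Between the lines with LPS, Irak3 was called and the other 9 genes were not, against 5.27% of all genes tested (0.89% higher and 4.38% lower in shGIV cells). The 3 shGIV libraries, at 12.7, 13.4 and 11.6 TPM, all lay below the shC library at 24.2 TPM, so that the mean in shGIV cells was 52.0% of the shC value. Groups of 3 and 1 did not overlap for 64.5% of all genes tested, so the lack of overlap by itself says little. The log2 difference was -0.89 ± 0.11 (adjusted p = 0.00850), and it stayed between -0.94 and -0.84 when each other library was left out (adjusted p = 0.0116 to 0.0292) and between -0.89 and -0.68 under the scalings (adjusted p = 0.00709 to 0.0133). The call was lost when the set number was added as a block (-0.82, adjusted p = 0.0628), when the shGIV and shC libraries with LPS were fitted alone (adjusted p = 0.134) and with 10 libraries (adjusted p = 1). It rests on a single shC library with LPS, which could not be left out. In replicate 2, the set number that both lines have with LPS, Irak3 was 13.4 TPM in shGIV cells and 24.2 TPM in shC cells. The shC library without LPS of that number is the one given apart. Whether this bears on the Irak3 value was not tested.

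Among the 9 genes that were not called with LPS, the log2 differences ran from -0.40 ± 0.21 for Ly96 (adjusted p = 0.320) to 0.08 ± 0.09 for Myd88 (adjusted p = 0.684). Ticam2, at 1.77 ± 0.0975 TPM in shGIV cells (SD, n = 3) and 2.52 TPM in shC cells, gave -0.35 ± 0.16 (adjusted p = 0.248). Cd14 gave -0.15 ± 0.09 (adjusted p = 0.349) and Irak2 gave -0.02 ± 0.16 (adjusted p = 0.974). With 1 shC library these values do not show that the lines were alike.

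Without LPS, limma called 0 of the 10 genes between the lines, against 1.22% of all genes tested (0.489% higher and 0.729% lower in shGIV cells). Of the 10, 1 gene, Irak2, had an unadjusted p under 0.05, as did 1678 of all 13711 genes tested. Irak2 was at 38.8, 42.8 and 45.5 TPM in shGIV cells, against 27.1 and 34.4 TPM in shC cells, without overlap, as for 28.3% of all genes tested. The ratio of means was 1.38 and the log2 difference 0.46 ± 0.13 (adjusted p = 0.182). Under the scalings it was 0.42 to 0.48, with adjusted p from 0.0639 to 0.182. Myd88 gave 0.17 ± 0.07 (adjusted p = 0.423) and Ly96 gave -0.28 ± 0.17 (adjusted p = 0.554). Irak3 at this time was at 8.63 ± 0.559 TPM in shGIV cells (SD, n = 3) and 8.81 ± 0.549 TPM in shC cells (SD, n = 2), a log2 difference of -0.03 ± 0.09 (adjusted p = 0.946).

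Averaged over both times, Irak3 was lower in shGIV cells by a log2 difference of -0.46 ± 0.07 (adjusted p = 0.0129) and was the 1 gene of the 10 called, against 5.16% of all genes tested (1.24% higher and 3.92% lower). Under TMM scaling Myd88 was called as well, at 0.20 higher in shGIV cells (adjusted p = 0.0476). With 10 libraries the Irak3 average was -0.17 and was not called (adjusted p = 0.936). This average shares its libraries with both comparisons above and is no separate evidence.

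The size of the LPS response was then compared between the lines directly. Limma called 0 of the 10 genes, against 0.226% of all genes tested (0.0948% higher and 0.131% lower in shGIV cells). Irak3 and Irak2 had an unadjusted p under 0.05, as did 2374 of all 13711 genes tested. The response of Irak3 was smaller in shGIV cells by a log2 difference of -0.87 ± 0.14 (adjusted p = 0.0670), with an adjusted p from 0.0587 to 0.175 when a library was left out and from 0.0553 to 0.0854 under the scalings. It passed the threshold with no filter on low values (adjusted p = 0.0453) and with a stricter one (adjusted p = 0.0493). With the set number as a block it was -0.75 and was not called (adjusted p = 0.284), and with 10 libraries it was not called either (adjusted p = 0.715). That of Irak2 differed by -0.47 ± 0.20 (adjusted p = 0.286), and that of Ticam2 by -0.43 ± 0.20 (adjusted p = 0.324). With 9 libraries and the filter used here, no difference in response was called for any of the 10 genes. With 1 shC library under LPS this does not show that the lines responded alike.

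The genes around these 10 were read from 3 lists. On the receptor side, which holds the receptor itself, its chaperones and other LPS-binding or membrane partners, 10 of 11 genes were tested. With LPS, 4 of the 10 rose and 5 fell in shGIV cells, and 4 rose and 5 fell in shC cells, with median log2 differences of -0.36 in shGIV cells and -0.04 in shC cells. Over all genes tested 15.8% rose and 59.7% fell in shGIV cells, with a median of -0.54, and 14.8% rose and 44.1% fell in shC cells, with a median of -0.40. Under TMM scaling 5 of the 10 rose and 4 fell in shGIV cells, and 5 rose and 3 fell in shC cells. Of all 13711 genes tested, TMM scaling called 4305 higher and 4883 lower in shGIV cells, and 3577 higher and 3649 lower in shC cells. The list's medians turned to 0.23 in shGIV cells and 0.40 in shC cells under TMM scaling. They stayed negative under quantile normalization (-0.31 in shGIV cells and -0.11 in shC cells) and under the rescaling (-0.25 and -0.08). Scimp, a transmembrane adaptor of Toll-like receptors in macrophages, rose by 5.47 in shGIV cells and 5.04 in shC cells, and Itgam, an integrin subunit, rose by 1.26 and 1.08. Cnpy3, a chaperone of Toll-like receptors, changed by -1.65 in shGIV cells and -1.43 in shC cells, and Rftn1, a raft protein, by -1.65 and -1.20. Tlr4 itself was at 12.0, 8.66 and 7.98 TPM in shGIV cells with LPS, against 23.1, 24.6 and 21.7 TPM without LPS. In shC cells Tlr4 was at 10.4 TPM with LPS, against 27.8 and 22.6 TPM without LPS, a log2 difference of -1.19 ± 0.22 (adjusted p = 0.00233), beside -1.21 ± 0.15 in shGIV cells (adjusted p = 0.000123). The receptor thus fell while its co-receptor Cd14 and adaptor Myd88 rose. Lbp, the serum LPS-binding protein, was at most 0.222 TPM and was not tested.

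Of the receptor-side genes, 3 were lower in shGIV cells with LPS and 0 higher, against 4.38% lower and 0.89% higher of all genes tested. They were Itgam (-0.44, adjusted p = 0.0297), Cd180 (-0.31, adjusted p = 0.0403) and Rftn1 (-0.59, adjusted p = 0.0464). Under TMM scaling and under quantile normalization 1 of them, Itgam, remained called. With the set number as a block, without any 1 of the 6 shGIV libraries, and with limma's variance prior held level across expression in place of a trend, 0 of the 10 receptor-side genes were called. Without LPS, 2 were lower and 0 higher, against 0.729% lower and 0.489% higher of all genes tested, namely the scavenger receptor Cd36 (-0.97, adjusted p = 0.0161) and Itgam (-0.62, adjusted p = 0.00764), and both calls were lost with the block. Without shC replicate 1, shC replicate 3 or shGIV replicate 2, all of the time without LPS, 1 receptor-side gene was called. No receptor-side gene was called at either time with 10 libraries or when only the groups compared were fitted.

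Downstream of the adaptors, 23 of 24 genes were tested, and 10 rose and 6 fell with LPS in shGIV cells, while 12 rose and 3 fell in shC cells. The median log2 difference was 0.14 in shGIV cells and 0.44 in shC cells, against -0.54 and -0.40 over all genes tested, of which 15.8% rose and 59.7% fell in shGIV cells and 14.8% rose and 44.1% fell in shC cells. The largest changes in both lines were those of Irf7, which drives type I interferon genes (4.59 in shGIV cells and 4.24 in shC cells), Ikbke, a kinase of the TRIF arm (3.55 and 3.57), the ubiquitin ligase Peli1 (2.66 and 2.78) and the kinase Map3k8 (2.31 and 2.26). Under TMM scaling 19 rose and 3 fell in shGIV cells and 16 rose and 3 fell in shC cells. Of all 13711 genes tested, 4305 then rose and 4883 fell in shGIV cells, and 3577 rose and 3649 fell in shC cells. Between the lines limma called 0 of the 23 with LPS and 0 without LPS, against 5.27% and 1.22% of all genes tested. With LPS 2 of the 23 had an unadjusted p under 0.05, beside 3031 of all 13711 genes tested. Without LPS 4 of the 23 did, beside 1678 of all 13711. TMM scaling called 1 with LPS, Map3k8, at 0.45 higher in shGIV cells (adjusted p = 0.0400), against 0.29 and no call on the deposited scale (adjusted p = 0.172).

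Of 18 genes known to restrain the pathway near the receptor, 15 were tested. In shGIV cells 4 rose and 9 fell with LPS, and in shC cells 3 rose and 5 fell, with medians of -0.27 in shGIV cells and -0.04 in shC cells. Over all genes tested the medians were -0.54 and -0.40, with 15.8% higher and 59.7% lower in shGIV cells and 14.8% higher and 44.1% lower in shC cells. Under TMM scaling 8 rose and 5 fell in shGIV cells and 8 rose and 4 fell in shC cells. Of all 13711 genes tested, 4305 then rose and 4883 fell in shGIV cells, and 3577 rose and 3649 fell in shC cells. The balance thus depends on the scaling for this list as it does for all genes tested. Tnfaip3, a ubiquitin-editing enzyme, rose by 4.39 in shGIV cells and 4.56 in shC cells, Socs1 by 2.83 and 2.44, and the Tnfaip3 partner Tnip1 by 1.97 and 2.42. Inpp5d, a lipid phosphatase, changed by -1.62 in shGIV cells and -1.04 in shC cells, and Traf4, a TRAF-family protein, by -1.46 and -1.23. With LPS 1 of the 15 was lower in shGIV cells and 0 higher, against 4.38% lower and 0.89% higher of all genes tested. It was the phosphatase Ptpn11 (-0.50 ± 0.09, adjusted p = 0.0288), a call that was lost under quantile normalization (adjusted p = 0.0535) and with the block (adjusted p = 0.108). Limma called 0 of the 15 when shGIV replicate 2 or 3 with LPS, or any shGIV replicate without LPS, was left out.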

How the data were processed

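Total RNA of mouse RAW cells was made into stranded libraries and read as pairs of 100 bases, per the labels' protocols. The authors deposited a log2 value, log2(TPM + 1), for each of 52143 genes in 10 libraries, made with kallisto 0.45.0 on GRCm38, per the submitters' processing notes. The annotation release, the summing of transcripts to genes and the use of strand are not given in the sources used here. TPM does not carry the number of reads, so the depth of a library and its counting error are unknown. None of the 45 pairs of libraries were identical.

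Samples were grouped by hairpin and LPS time as labelled, and 1 of the 11 labelled samples was not analysed. limma 3.58.1 in R 4.3.3 was fitted to the 4 groups of 9 libraries in 1 model, with a mean-variance trend, on genes that reached 1 on the log2 scale in 2 or more libraries. P-values were adjusted by Benjamini-Hochberg over all 13711 genes within each of 6 comparisons, with a threshold of 0.05. Errors of log2 differences are SE. The script was tested on simulated data. Means, shares and ratios were computed from TPM, which is 2 to the power of the deposited value minus 1. The genes, the lists and the comparisons were chosen with earlier results of these data known. Named genes are the 10, Ccdc88a, up to 4 called genes with the largest change per list and comparison, and, for each of the 10, the 3 genes with the most similar pattern, of which 1 is not reported here. Annotated overlapping genes, Lbp as the untested list gene and Map3k8 were named after their values were seen. Alternatives were the set number as a replicate block, 10 libraries, no filter, a filter at 3 on the log2 scale, a pseudocount of 0.1, quantile normalization, TMM factors from TPM with 30% and 5% trimmed, a rescaling after removal of mitochondrial genes and the 100 most abundant genes, eBayes without a trend, only the groups compared, and leaving out each library. Positions and overlaps came from GENCODE M21 and promoter windows from RefSeq. A planned comparison of protein sequences was not made. Tables and figures used Python 3.11.15, numpy 2.4.6, pandas 2.3.3 and matplotlib 3.10.9.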

Additional observations from a re-analysis of the deposited data

How the results depend on the processing

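The 10 genes were tested in 6 comparisons, and 9 libraries, 1 of them the lone shC library with LPS, set the limit. Apart from leaving out libraries, 545 values of the 10 genes kept their side of the threshold, 26 were no longer past it and 8 newly passed it. Of the values called in the main fit, 1 turned (Irak4 for LPS in shC cells with 10 libraries, 0.11). Values not called could change sign and still count as kept, as for Irak2 between the lines with LPS (-0.02 to 0.14 over the scalings). With a library left out 498 kept their side of the threshold and 2 newly passed it. Here too values not called could change sign, as for Irak1 between the lines without LPS (-0.01 to 0.27). With 10 libraries the numbers of genes called were 2236 for LPS in shGIV cells (against 10349), 481 for LPS in shC cells (against 8075), and 0 for the difference between lines with LPS (against 722), without LPS (against 167), averaged (against 708) and for the difference of responses (against 31), and 1, 0, 0 and 0 of the 10 genes were called for LPS in shGIV cells, LPS in shC cells, the lines with LPS and the average. When only the groups compared were fitted, 2859 genes and 4 of the 10 were called for LPS in shC cells, 56 genes and 0 of the 10 between the lines with LPS, and 16 genes without LPS. For the lines without LPS quantile normalization called 309 genes and rescaling 277. For the difference of responses no filter called 360 genes and 1 of the 10 (Irak3), the stricter filter 73 and 1 (Irak3), TMM scaling 87 and rescaling 64. TMM scaling called 2 of the 10 for the average. The cause of these shifts was not tested. Ccdc88a averaged over both times was -0.27 with 10 libraries (adjusted p = 0.936), and its call was lost with no filter (-0.63, adjusted p = 0.0649), TMM scaling (-0.56, 0.0573), quantile normalization (-0.57, 0.0615) and rescaling (-0.64, 0.0509).

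With a library left out, the number of genes called ran from 9844 to 10407 for LPS in shGIV cells, 7333 to 8022 for LPS in shC cells (8 to 9 of the 10 genes), 325 to 953 for the lines with LPS, 58 to 167 without LPS, 407 to 816 averaged and 0 to 21 for the difference of responses, and Ccdc88a averaged from -0.71 to -0.54. Of the 10 genes 9 were called for LPS in shGIV cells, 1 for the lines with LPS, 0 without LPS, 1 averaged and 0 for the difference of responses in every such fit. Same-numbered shGIV libraries with and without LPS deviated together with correlations of 0.0617, 0.0715 and 0.0970 across genes. These were under the 0.1 asked for, although each library correlated best with its own number. Between different numbers the correlations ran from -0.0707 to -0.00424. Whether the numbers pair the samples is therefore not settled. The set number was left out of the model used above, and the fit with it is given as an alternative. With the set number as a replicate block 83 genes and 0 of the 10 were called for the lines with LPS (Irak3 -0.82, adjusted p = 0.0628), 58 genes without LPS, 465 averaged and 0 for the difference of responses.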

Other observations

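Patterns most like those of the 10 genes were sought among 7933 genes over the 9 libraries, as Pearson's r of log2(TPM + 1). All libraries share the split by LPS, which alone gives high values, so these are descriptions without a test. Irak3, whose level was highest in the shC library with LPS, was most like Gas7 (r = 0.991), Ncstn (0.985) and Cpeb4 (0.984). Irak2 was most like Tab2, an adaptor of the kinase TAK1 further down the pathway (r = 0.998), and Vasp was also among its closest (0.994). Cd14 was most like Gpr84, Helz2 and Znfx1, and Myd88 most like Mrpl52, Tbrg1 and Ifitm3, each with r over 0.99. Ticam1 was most like Hcls1, Tent4a and Psmd8. Of the genes that fell, Ticam2 was most like Pole3, Isca1 and Trim44, Irak1 most like Lmna, Ogdh and D8Ertd738e, and Irak4 most like Mrpl50, Klf10 and Fam136a. The closest partners of Tirap and Ly96 had lower values, with Gm12865 at 0.968 for Tirap and Lmbrd1 at 0.897 for Ly96.

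Several of the 10 genes overlap others in the annotation. Irak4 overlaps Twf1 on the opposite strand, at means of 27.1 TPM in shGIV cells with LPS and 31.0 TPM without LPS. Irak3 overlaps Tmbim4 on the opposite strand over 541 bases, and Tmbim4 was at means of 75.3 TPM in shGIV cells with LPS, 73.5 TPM in the shC library with LPS, 68.5 TPM in shGIV cells and 63.8 TPM in shC cells without LPS. The Tmbim4 level therefore lacked the gap between lines with LPS that Irak3 had. Tirap overlaps Srpr on the opposite strand, at means of 90.7 TPM in shGIV cells with LPS and 67.8 TPM without LPS. Myd88 lies within Slc22a14 on the same strand, which is listed at 0 in all 9 libraries.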
